A study of Danio rerio with 8 samples.

Results

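Insulin-like growth factors and the proteins that bind them were followed in RNA from sorted cells of zebrafish larvae. The 10 genes are 3 ligand genes (igf1, igf2a and igf2b), 6 binding protein genes (igfbp1a, igfbp1b, igfbp2a, igfbp3, igfbp5a and igfbp5b) and igfbp7. They were selected by gene name from a table of 32520 genes, and each name matched 1 row. Earlier results of these data were known when they were chosen. The samples were 4 libraries labelled Hpa2 loss-of-function (LOF), whose larvae had received at the one-cell stage a morpholino directed at junction 10 between exon and intron of hpse2, and 4 control libraries whose larvae had received the same molar amount of a standard control morpholino. Morpholinos are antisense molecules, and one placed on such a junction blocks splicing. All larvae carried the transgene Tg(fli1:EGFP)y1 on a genotype labelled wt and were 96 hours post fertilization (hpf) when 60 to 80 of them were pooled and dissociated with trypsin. GFP-positive cells were sorted after addition of propidium iodide, a dye of dead cells, and their polyadenylated RNA was sequenced with an ultra-low-input protocol. The fli1 promoter of the transgene is active in endothelium and also in neural crest-derived mesenchyme of the pharyngeal skeleton. The study asked how loss of heparanase 2 (Hpa2), a protein that binds heparan sulfate, affects endothelial cells.

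Insulin-like growth factors act through receptor tyrosine kinases of the insulin receptor family, and signal through insulin receptor substrates, PI3 kinase and Akt to promote growth and survival. Secreted binding proteins hold the ligands outside the cell, block or prolong their access to receptors, and release them when proteases cut the binding protein. In mammals, IGFBP3 and IGFBP5 carry a basic stretch that binds heparan sulfate and other glycosaminoglycans, and IGFBP7, a relative with low affinity for the ligands, is a secreted protein of the vascular wall. Liver is a major source of circulating Igf1 and of Igfbp1 in vertebrates, whereas Igf2 and several binding proteins are made locally by mesenchyme.

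In each group the libraries were numbered 1_1, 1_2, 2_1 and 2_2, the first digit being the biological replicate, and all 8 held between 5048839 and 11344918 counts. Whether libraries that share a biological replicate had separate pools of larvae is not stated, so the p-values measure only the spread between these libraries, some of which may be technical. The first principal component of all genes tested held 40.3% of the variance and separated not the groups but a pair of library sets. The first set was LOF-labelled 2_1 and 2_2 with control 1_1 and 1_2, and the second was LOF-labelled 1_1 and 1_2 with control 2_1 and 2_2. The target gene hpse2 had 83.3, 83.3, 47.4 and 49.0 CPM (counts per 1000000 counts of the library, with library sizes scaled by TMM) in the LOF-labelled libraries 1_1, 1_2, 2_1 and 2_2, against 27.7, 20.6, 32.5 and 33.1 CPM in the controls. Its count was thus higher under the loss-of-function label (log2 fold change 1.20, SE 0.23, edgeR adjusted p = 0.130). An exact permutation test of the 8 libraries, two-sided, gave p = 0.0286, the least possible with 70 arrangements. It took the libraries as independent, though each group had only 2 biological replicates. DESeq2 (log2 fold change 1.21, adjusted p = 2.19e-04) called hpse2 higher. So did edgeR with the library sets as a block (1.17, adjusted p = 4.15e-07), a fit added with earlier results known, which called 2.55% of all genes. The sets were read from these same libraries, and each held a single biological replicate per group. The p-values of this block thus measure mostly the spread within a biological replicate. Fits on counts summed per biological replicate (1.18) and with biological replicate as a random effect (1.12) did not call hpse2. Over all genes these fits called 0 and 5. A splice-blocking morpholino need not lower the gene's count, so these values do not check the loss of function, and the libraries are called LOF-labelled throughout.

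The sorted cells held transcripts of connective tissue and cartilage beside endothelial ones. On unscaled library totals fli1a had 424 to 528 CPM in LOF-labelled libraries, against 419 to 540 CPM in controls. Its promoter is also active in mesenchyme, so this level is not one of endothelium alone. The endothelial markers kdrl, cdh5, tie1 and pecam1 were lower than fli1a in both groups, and the ranges of the 2 groups overlapped for each of them. kdrl had 41.7 to 93.3 CPM in LOF-labelled libraries, against 29.5 to 82.4 CPM in controls, and cdh5 had 25.32 to 46.65 CPM, against 25.15 to 54.93 CPM. In the same order tie1 had 12.3 to 23.5 CPM, against 11.1 to 31.5 CPM, and pecam1 had 8.9 to 32.2 CPM, against 8.7 to 35.4 CPM. All 20 genes of an endothelial list were detected in at least 1 library. A fibroblast list of 22 genes summed to 45490 to 57730 CPM in the LOF-labelled libraries, against 39010 to 47950 CPM in the controls, and was led by col1a2 and col1a1b. Levels below are therefore those of a mixture, in which fewer cells of a type and less RNA per cell cannot be told apart.

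All 10 genes had at least 1 count in every library, but at levels that fell into 2 tiers. The lowest were igfbp5a, with 1 and 2 counts in LOF-labelled 2_1 and 2_2, and igfbp2a, with 2 counts in control 1_2. Per transcript length, as TPM, which divides each count by gene length and scales every library to the same sum, 7 genes (igf2b, igfbp5b, igfbp7, igfbp3, igf2a, igfbp1a and igf1) averaged 55.4 to 136 TPM in the LOF-labelled libraries and 44.0 to 122 TPM in the controls. The other 3, igfbp1b, igfbp2a and igfbp5a, averaged 0.75 to 4.13 TPM in the LOF-labelled libraries and 0.71 to 3.63 TPM in the controls. Among the 15559 genes tested, igf2b stood at rank 1437 by mean TPM and igf1 at rank 3903, whereas igfbp1b and igfbp2a stood at ranks 13374 and 13533. igfbp5a did not reach the count needed for testing.

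In the LOF-labelled libraries igf2b led at 136 ± 16.3 TPM (mean ± SD, n = 4, as for all such values below), and its range of 119 to 152 TPM did not overlap that of igfbp5b, which followed at 101 ± 9.07 TPM, but did overlap that of igfbp7, which reached 125 TPM. Below igfbp5b, igfbp7 (90.5 ± 30.4 TPM), igfbp3 (87.5 ± 24.3), igf2a (75.3 ± 17.0), igfbp1a (72.8 ± 16.1) and igf1 (55.4 ± 11.9) overlapped from each neighbour to the next. In the controls igfbp3 led at 122 ± 17.0 TPM and overlapped igf2b at 118 ± 8.19 TPM. Next by mean was igfbp5b at 85.7 ± 19.8 TPM, whose highest control value of 103 TPM was below both ranges. Then came igfbp1a (80.4 ± 22.4 TPM), igfbp7 (79.1 ± 32.4), igf2a (55.3 ± 15.1) and igf1 (44.0 ± 4.68), again with overlapping neighbours. Of these, igfbp1a reached 110 TPM and igfbp7 118 TPM, so both overlapped igfbp3 and igf2b, and igfbp1a was the highest gene of the family in control 1_2. In the lower tier the order of igfbp1b and igfbp2a changed between libraries.

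**Figure D1:**
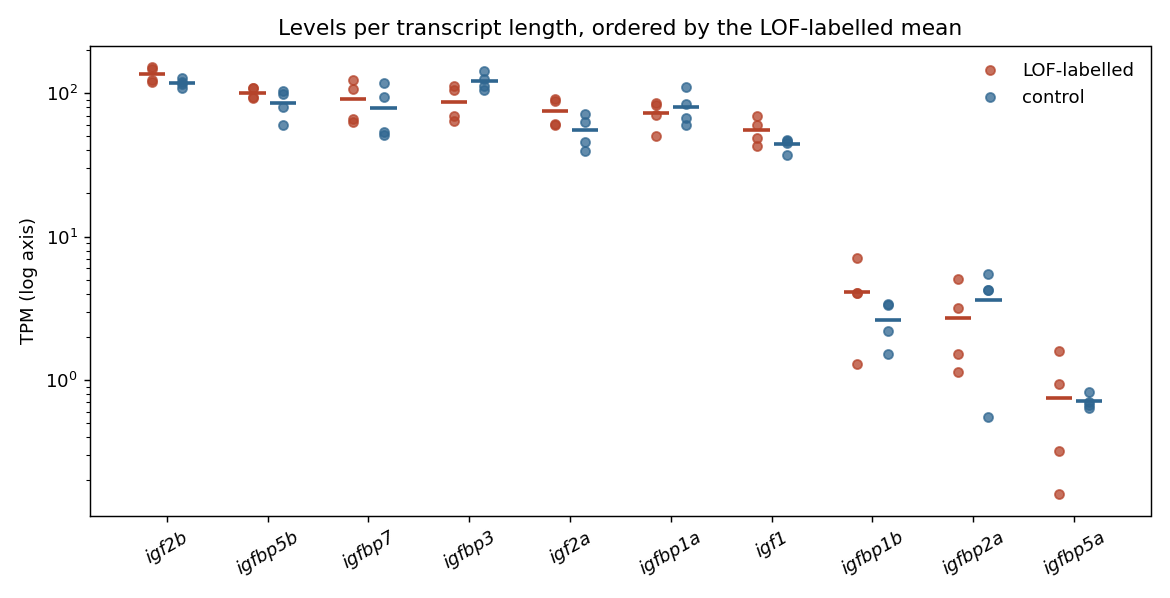
Level of the 10 genes in TPM (log axis), with 1 point per library and a bar at the group mean, LOF-labelled libraries left of controls, genes ordered by the LOF-labelled mean. The 7 genes of the upper tier lie between 37.1 and 152 TPM in all libraries, and igfbp1b, igfbp2a and igfbp5a lie at 7.13 TPM or below.

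No gene of the family passed the edgeR test between the groups. Across all genes edgeR called 14 of 15559 (0.0900%) at an adjusted p under 0.05, and 0 of the 9 family members tested. At an unadjusted p under 0.05 stood 2 of the 9, igfbp3 and igf2a, where 6.29% of all genes tested did. DESeq2 (0.617% of all genes called) and limma-voom (0.109%) also called 0 of the 9, and limma-voom with sample weights (0.450%) called 1, igfbp3. Over the 9 members 6 fold changes were above 0 and 3 below, with a median of 0.17 on the log2 scale, against a median of 0.0017 and 50.3% above 0 over all genes.

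**Figure D2:**
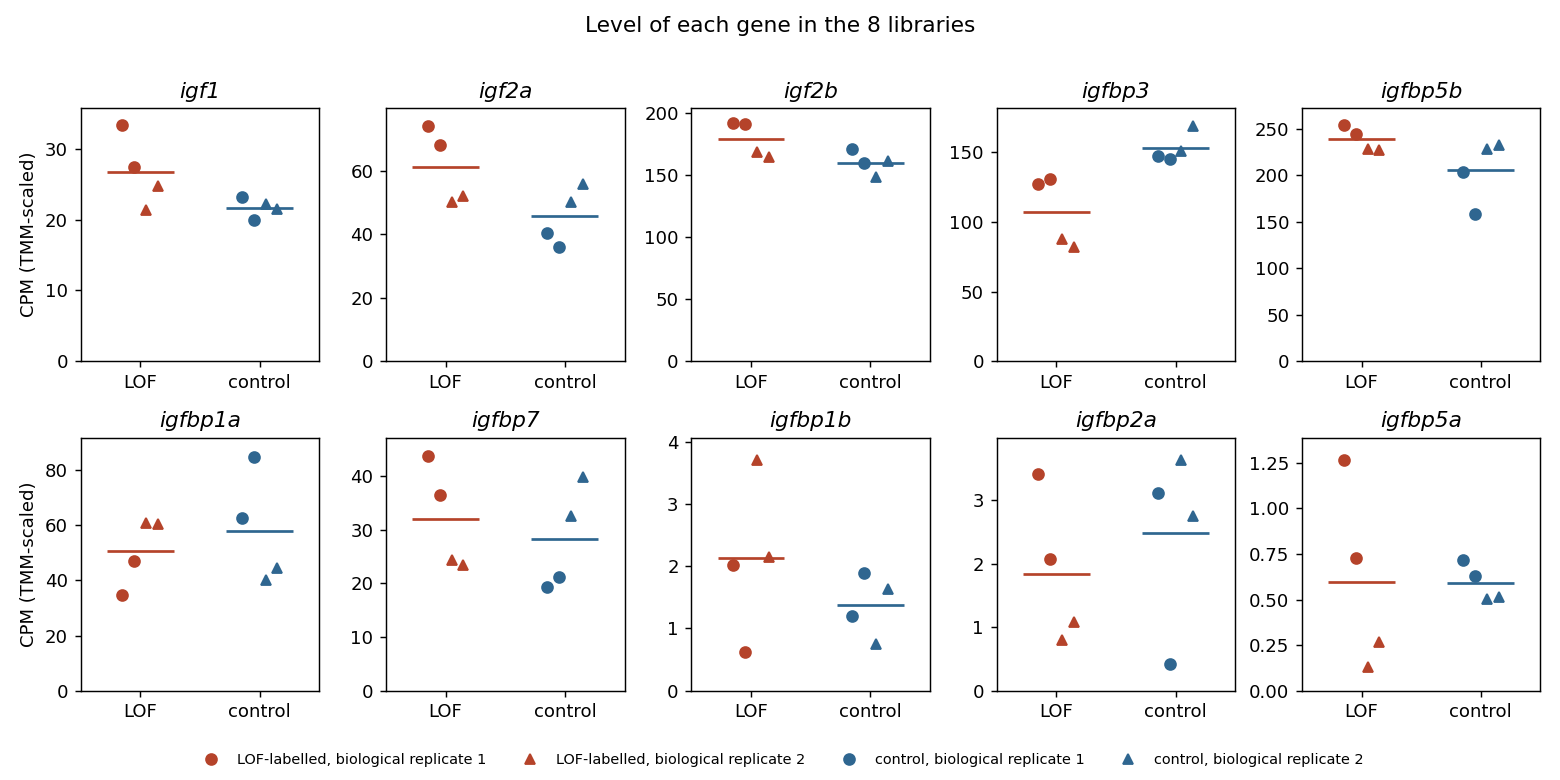
Scaled CPM of each gene in the 8 libraries, with LOF-labelled libraries left of controls, circles for biological replicate 1, triangles for biological replicate 2 and a bar at each group mean. For igfbp3 the LOF-labelled points, 82.2 to 131 CPM, all lie below the control points, 145 to 169 CPM, and for the other 9 genes the groups overlap.

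The ligand igf2b (chromosome 25, 24039364 to 24046870, reverse strand, ENSDARG00000033307; GRCz11, as all coordinates here) encodes an insulin-like growth factor 2, a growth factor of embryonic tissue. Its level was 192, 191, 169 and 165 CPM in LOF-labelled libraries 1_1, 1_2, 2_1 and 2_2, and 171, 160, 149 and 161 CPM in the controls of the same numbers. Control 1_1 alone lay within the LOF-labelled range, and the difference was 0.16 on the log2 scale (SE 0.092, 95% interval -0.040 to 0.36, edgeR adjusted p = 0.828). It was the steadiest ligand, with a coefficient of variation of 8.06% in the LOF-labelled libraries and 5.74% in the controls.

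Its paralog igf2a lies on chromosome 7 (48870496 to 48876480, forward strand, ENSDARG00000018643). It had 74.1, 68.2, 50.4 and 52.2 CPM in the LOF-labelled libraries, against 40.3, 35.9, 50.4 and 56.0 CPM in the controls. All 4 LOF-labelled values were above the control mean of 45.7 CPM, yet the groups overlapped, because LOF-labelled 2_1 and 2_2 did not exceed control 2_2. The log2 fold change was 0.42 (SE 0.17, 95% interval 0.045 to 0.79, unadjusted p = 0.0314, edgeR adjusted p = 0.733). The difference was 0.43 within the first library set and 0.42 within the second. Only with the library sets as a block, a fit added with earlier results of these data known, was igf2a called (log2 fold change 0.42, edgeR adjusted p = 0.00845), where 2.55% of all genes were. Within each set a group held a single biological replicate, so that p-value measures mostly the spread within a biological replicate. Fits on counts summed per biological replicate (0.40) and with biological replicate as a random effect (0.39) did not call igf2a. Biological replicates 1 and 2 averaged 71.2 and 51.3 CPM in the LOF-labelled group, against 38.1 and 53.2 CPM in the controls, with overlap.

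The third ligand, igf1 (chromosome 4, 17310143 to 17326717, forward strand, ENSDARG00000094132), encodes the growth hormone dependent factor of the circulation, also made in many tissues. It had 33.4, 27.5, 21.3 and 24.8 CPM in the LOF-labelled libraries, against 23.2, 20.0, 22.2 and 21.5 CPM in the controls. The controls lay close together, while LOF-labelled 1_1 was the highest library and LOF-labelled 2_1 lay within the control range. The log2 fold change was 0.30 (SE 0.14, 95% interval -0.020 to 0.62, edgeR adjusted p = 0.812), 0.094 within the first library set and 0.47 within the second.

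As shares of the summed ligand TPM, igf2b made up 47.6% to 54.6% in the LOF-labelled libraries and 51.1% to 58.6% in the controls. The share of igf2a was 26.4% to 29.7% in the LOF-labelled libraries and 21.3% to 29.2% in the controls, and that of igf1 was 18.9% to 22.6% in the LOF-labelled libraries and 18.9% to 21.2% in the controls. The proportions of the 3 ligands thus overlapped between the groups. Per 1000 counts of the fibroblast list, igf2b had 3.55 ± 0.138 counts in the LOF-labelled libraries and 3.61 ± 0.177 in the controls, with overlap. On the same scale igf2a had 1.20 ± 0.122 counts in the LOF-labelled libraries and 1.03 ± 0.198 in the controls, and igf1 had 0.527 ± 0.069 in the LOF-labelled libraries and 0.490 ± 0.030 in the controls. The part of fibroblast content in the ligand values was not tested.

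Among the binding proteins, igfbp3 was the gene whose groups separated. In zebrafish Igfbp3 is known for a role in the pharyngeal skeleton and the inner ear, and its mammalian counterpart is the main carrier of the ligands in serum. The gene occupies 6756247 to 6804237 of chromosome 20 (forward strand, ENSDARG00000099144). Its level was 127, 131, 87.5 and 82.2 CPM in LOF-labelled libraries 1_1, 1_2, 2_1 and 2_2, and 147, 145, 151 and 169 CPM in the controls. All LOF-labelled libraries were below all controls, and those of biological replicate 2 were the lowest. Groups that did not overlap were found for 1 of the 9 members tested, igfbp3, and for 4.65% of all genes tested (2.62% with the LOF-labelled group lower).

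The log2 fold change of igfbp3 was -0.52 (SE 0.15, 95% interval -0.86 to -0.18, unadjusted p = 0.00655), and with adjustment over all genes it did not pass (edgeR adjusted p = 0.528). It was -0.78 within the first library set and -0.31 within the second. limma-voom with sample weights (log2 fold change -0.73, adjusted p = 0.0384) called it, as it did 0.450% of all genes. So did edgeR with the library sets as a block (-0.54, adjusted p = 8.17e-04), the added fit that called 2.55% of all genes. Within each set a group held a single biological replicate, which limits what the p-value of the block measures. Fits on counts summed per biological replicate (-0.53) and with biological replicate as a random effect (-0.54) did not call igfbp3. Over all genes these fits called 0 and 5, so the lack of a call says little about igfbp3 by itself. Its unadjusted p was 0.0577 in the fit on summed counts and 0.00524 in the fit with the random effect. Biological replicates 1 and 2 averaged 129 and 84.8 CPM in the LOF-labelled group, against 146 and 160 CPM in the controls.

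Cartilage transcripts were lower in the same libraries. A list of 24 cartilage and neural crest genes, of which 1 (snorc) was at 0 throughout, summed to 32430, 33600, 23080 and 23850 CPM in LOF-labelled libraries 1_1, 1_2, 2_1 and 2_2, against 40550, 40960, 37860 and 40160 CPM in the controls. The most abundant of them, col2a1a, had 4106 to 5186 CPM in the LOF-labelled libraries and 5488 to 6397 CPM in the controls. Next was col2a1b, at 3461 to 4734 CPM in the LOF-labelled libraries and 4436 to 5151 CPM in the controls, with overlap. The gene matn1, which encodes a cartilage matrix protein, had 1765 to 2877 CPM in the LOF-labelled libraries and 4645 to 5984 CPM in the controls. Like igfbp3, the sum of the list was lower in every LOF-labelled library than in any control and lowest in LOF-labelled 2_1 and 2_2. Per 1000 counts of the list, igfbp3 had 3.97, 3.95, 3.79 and 3.41 counts in the LOF-labelled libraries and 3.50, 3.34, 4.12 and 4.30 in the controls. These ratios averaged 3.78 ± 0.256 in the LOF-labelled libraries and 3.82 ± 0.466 in the controls, and they overlapped. A list of 13 neuronal genes, led by tubb5 and atp1a3a, also stood lower in every LOF-labelled library (346 to 369 CPM) than in any control (380 to 483 CPM). The lists were set beside igfbp3 after the values were seen, and their part in its difference was not tested.

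**Figure D3:**
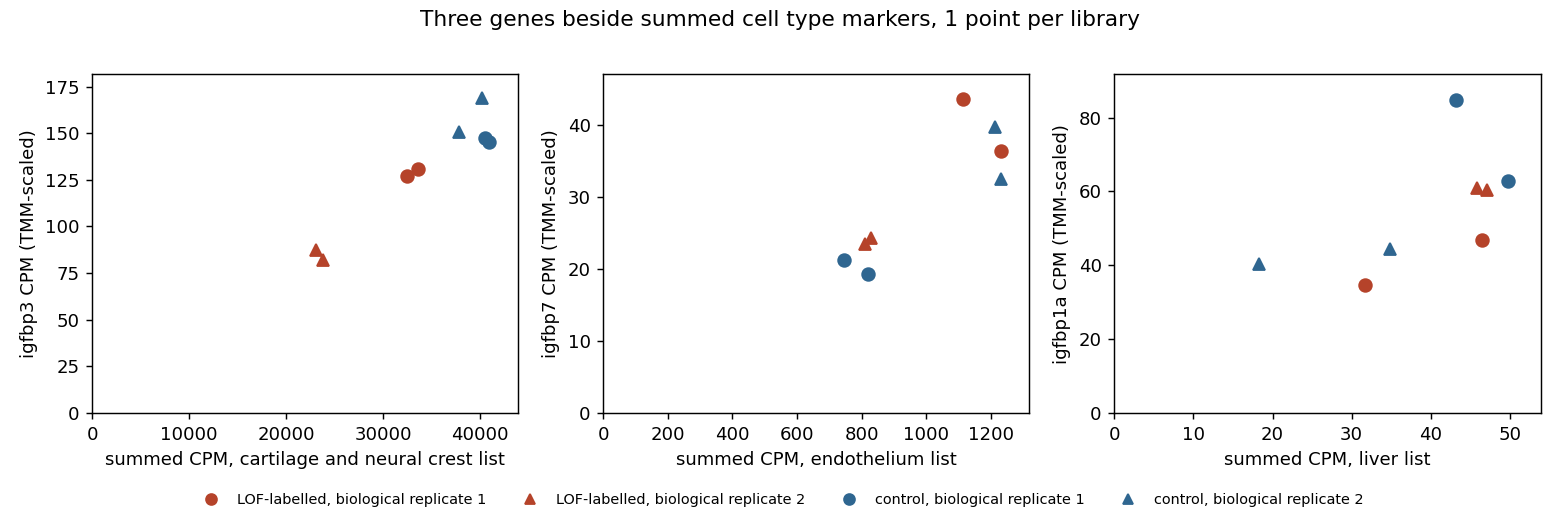
Scaled CPM of igfbp3, igfbp7 and igfbp1a (vertical axes) against the summed CPM of the cartilage and neural crest, endothelium and liver lists (horizontal axes), 1 point per library, coloured by group with circles for biological replicate 1 and triangles for biological replicate 2. The LOF-labelled libraries lie at 23080 to 33600 CPM of cartilage transcripts with 82.2 to 131 CPM of igfbp3, below and to the left of the controls, whereas for igfbp7 and endothelium each group is divided between the low and the high end.

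The neighbour of igfbp3 on chromosome 20, igfbp1a (6808774 to 6812688, reverse strand, ENSDARG00000099351), lies 4536 bases beyond its end, with no other gene of the table starting between them. It encodes a binding protein that restrains growth and is induced by hypoxia and fasting in zebrafish. Its level was 34.6, 46.9, 61.0 and 60.4 CPM in the LOF-labelled libraries, against 62.8, 84.9, 40.2 and 44.4 CPM in the controls. The spread within a group was wide, and the 4 libraries of the first set, at 60.4 to 84.9 CPM, all lay above the 4 of the second, at 34.6 to 46.9 CPM. Between the groups the log2 fold change was -0.19 (SE 0.25, 95% interval -0.76 to 0.38, edgeR adjusted p = 0.956), and without control 1_2, the highest library, it was 0.046. The ratio of igfbp3 to igfbp1a in TPM was 0.767 to 2.07 in the LOF-labelled libraries and 0.964 to 2.14 in the controls, so the neighbours did not keep a fixed proportion.

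A list of 20 liver genes, 19 of them in the table and all 19 detected, summed to 31.7 to 47.2 CPM in the LOF-labelled libraries and 18.3 to 49.7 CPM in the controls. The most abundant of them, tfa, had 17.6 to 19.8 CPM in the LOF-labelled libraries and 10.5 to 14.9 CPM in the controls, without overlap, and apoa1b had 4.73 to 10.7 CPM in the LOF-labelled libraries and 1.81 to 9.69 CPM in the controls. The hepatocyte marker fabp10a had 0.767 to 1.79 CPM in the LOF-labelled libraries, against 0.777 to 1.62 CPM in the controls. The counts of igfbp1a alone exceeded those of the whole liver list in all 8 libraries, at 1030 to 1330 counts per 1000 list counts in the LOF-labelled libraries and 1220 to 2280 in the controls.

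The blood and epidermis lists divided between the library sets as igfbp1a did. The blood list, led by lcp1 and slc4a1a, had 13 of 14 genes in the table, 1 of them at 0 throughout, and summed to 1340, 1252, 2952 and 2980 CPM in LOF-labelled libraries 1_1, 1_2, 2_1 and 2_2, against 2456, 2911, 1505 and 1482 CPM in the controls. The epidermis list, led by pfn1 and krt8, had 14 genes, of which 3 (krt5, epcam and cldni) were at 0 throughout, and summed to 2398, 2155, 3257 and 3363 CPM in the LOF-labelled libraries, against 3119, 3395, 2495 and 2416 CPM in the controls. For both lists, as for igfbp1a, every library of the first set was above every library of the second. Such a split is not particular to them, since the sets did not overlap for 27.3% of all genes tested. The endothelial and mural cell lists, given below, split between the sets in the opposite direction. The part of liver, blood or epidermis content in the igfbp1a values was not tested.

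The most abundant family member by mean CPM in both groups was igfbp5b (chromosome 9, 46820636 to 46842179, reverse strand, ENSDARG00000025348), whose deposited gene length of 6049 bases, the longest of the family, places it lower by TPM. In control 1_2 alone igf2b was slightly higher, at 159.9 CPM against 158.4 CPM. The gene igfbp5b encodes an Igfbp5, in mammals a binding protein of bone and connective tissue that attaches to the matrix. It had 254, 244, 228 and 227 CPM in the LOF-labelled libraries, against 203, 158, 229 and 232 CPM in the controls. LOF-labelled 2_1 and 2_2 and controls 2_1 and 2_2 lay within 5 CPM of each other, and control 1_2 was the lowest library. The log2 fold change was 0.21 (SE 0.12, 95% interval -0.056 to 0.48, edgeR adjusted p = 0.835), and 0.11 without control 1_2. Per 1000 counts of the fibroblast list, igfbp5b had 4.74 ± 0.322 counts in the LOF-labelled libraries and 4.63 ± 0.726 in the controls.

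The 2 abundant binding proteins of the IGFBP3 and IGFBP5 types stood in different proportions in the 2 groups of 4 libraries. The ratio of igfbp3 to igfbp5b in TPM was 0.963, 1.03, 0.737 and 0.695 in the LOF-labelled libraries and 1.39, 1.76, 1.27 and 1.40 in the controls, without overlap. Of the summed TPM of the 6 binding proteins and igfbp7, igfbp3 held 20.7% to 27.6% in the LOF-labelled libraries, against 31.7% to 33.4% in the controls. The share of igfbp5b was 26.8% to 29.8% in the LOF-labelled libraries and 18% to 25.7% in the controls. The ratio and these shares combine the values already given, were computed after those were seen, and were not tested. In CPM igfbp3 by itself separated the groups, whereas igfbp5b overlapped. The shares have a common denominator that includes igfbp3, so they are not separate observations. How often other pairs of genes separate the groups was not computed.

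The gene igfbp7 (chromosome 14, 52369262 to 52379718, forward strand, ENSDARG00000104138) had 43.6, 36.4, 24.3 and 23.4 CPM in the LOF-labelled libraries, against 19.4, 21.2, 32.5 and 39.8 CPM in the controls. Each group was split, with the second library set at 32.5 to 43.6 CPM and the first at 19.4 to 24.3 CPM. Between the groups the log2 fold change was 0.17 (SE 0.27, 95% interval -0.43 to 0.77, edgeR adjusted p = 0.965), and it was -0.017 without LOF-labelled 1_1. The summed endothelial markers were split in the same way, at 1115, 1231, 828 and 810 CPM in the LOF-labelled libraries, against 820, 746, 1233 and 1215 CPM in the controls. A large part of this sum was fli1a, at 424 to 528 CPM in the LOF-labelled libraries and 419 to 540 CPM in the controls. The fli1 promoter is also active in mesenchyme, so the sum is not specific to endothelium. Next was flt4, at 85.4 to 133.5 CPM in the LOF-labelled libraries and 65.4 to 111 CPM in the controls. Per 1000 counts of the endothelial list, igfbp7 had 31.9 ± 5.15 counts in the LOF-labelled libraries and 27.6 ± 4.43 in the controls, with overlapping ranges. A list of 13 mural cell genes, led by pdgfrb and foxc1b and all detected, was also split between the sets, with 1713, 1827, 1373 and 1337 CPM in the LOF-labelled libraries, against 1208, 1064, 1662 and 1650 CPM in the controls. The part of endothelial or mural cell content in the igfbp7 values was not tested.

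The low tier gave little information. Counts of igfbp1b (chromosome 2, 124433 to 127945, reverse strand, ENSDARG00000038666) were 16, 6, 28 and 16 in the LOF-labelled libraries and 10, 9, 6 and 19 in the controls, a log2 fold change of 0.63 (SE 0.50, 95% interval -0.48 to 1.74, edgeR adjusted p = 0.901). igfbp2a, whose product has been tied to cardiovascular development in zebrafish, had 27, 20, 6 and 8 counts in the LOF-labelled libraries and 26, 2, 29 and 32 in the controls (chromosome 6, 20921542 to 20952187, reverse strand, ENSDARG00000052470). Its log2 fold change was -0.47 (SE 0.55, 95% interval -1.69 to 0.74, edgeR adjusted p = 0.953). For both genes the SE was about as large as the difference, and the groups overlapped. Without 1 library at a time, the log2 fold change of igfbp1b ranged from 0.23 without LOF-labelled 2_1 to 0.95 without LOF-labelled 1_2. That of igfbp2a ranged from -0.93 without LOF-labelled 1_1 to -0.22 without LOF-labelled 2_1, and limma-voom with sample weights gave -1.11.

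Next to igfbp2a, 2847 bases away, lies igfbp5a (chromosome 6, 20910551 to 20918694, forward strand, ENSDARG00000039264), which in zebrafish is known from skin ionocytes. It had 10, 7, 1 and 2 counts in the LOF-labelled libraries and 6, 3, 4 and 6 in the controls. The summed counts were 20 in the LOF-labelled libraries and 19 in the controls, a ratio of 1.06 after division by the scaled totals (95% exact interval 0.537 to 2.10, counting error only). The interval leaves out the spread between libraries, so it sets no bound on the difference between the groups. The transcripts of its paralog igfbp5b were thus far more abundant in the same libraries, at 101 ± 9.07 TPM against 0.751 ± 0.650 TPM of igfbp5a in the LOF-labelled libraries and 85.7 ± 19.8 TPM against 0.708 ± 0.083 TPM in the controls.

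**Figure D4:**
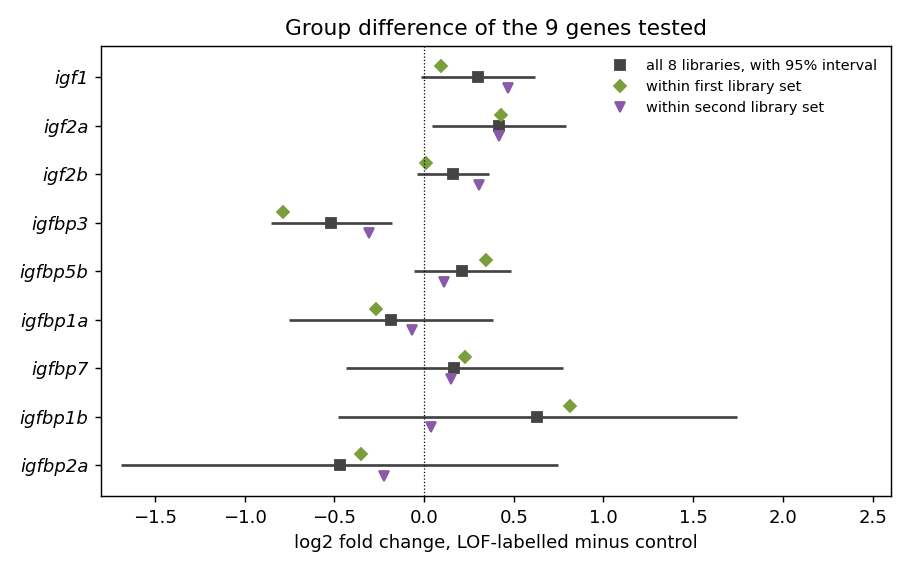
Log2 fold change (LOF-labelled minus control) of the 9 genes tested by edgeR, as squares with 95% intervals, with the difference of mean log2 CPM within the first library set (diamonds) and the second (triangles). The interval of igfbp3, -0.86 to -0.18, and that of igf2a, 0.045 to 0.79, do not reach 0 before adjustment over all genes. The 2 sets give each gene the same sign, though some differences are small, such as 0.013 for igf2b in the first set.

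Within both library sets all 9 tested members had differences of the same sign, as did 57.7% of all genes tested. Some of these differences were small, with igf2b at 0.013 in the first set and igfbp1b at 0.036 and igfbp1a at -0.068 in the second. The sign of such a difference carries little information. For 6 of the 9 the difference between the sets in mean log2 CPM was larger in size than the edgeR log2 fold change between the groups. The share of all genes for which this held was not computed. Over all genes tested the median absolute difference between the sets was 0.251. In mean log2 CPM the second set exceeded the first by 1.25 for igfbp2a and 0.78 for igfbp7, and it was below the first by values of -0.69 for igfbp1a and -0.75 for igfbp1b. The sets did not overlap for igfbp7 and igfbp5b, higher in the second, and for igfbp1a, lower in the second, that is for 3 of 9 tested members and for 27.3% of all genes tested (13.1% with the second set higher). For igfbp5b the sets barely separated, with a maximum of 228.1 CPM in the first and a minimum of 228.5 CPM in the second. The sets were found from the same libraries, and no test was made between them.

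The genes whose profiles over the 8 libraries came closest to those of the 3 members of smallest p were found by the root mean square difference of log2 CPM, each gene centred on its own mean. For igfbp3, whose own standard deviation over the libraries was 0.376, they were trabd2a (0.079), srpx (0.089) and plod3 (0.092). Of these, trabd2a had 56.78 to 90.25 CPM in the LOF-labelled libraries and 86.77 to 111.5 CPM in the controls, with overlap. srpx had 216, 224, 141 and 147 CPM in LOF-labelled libraries 1_1, 1_2, 2_1 and 2_2 and 259 to 271 CPM in the controls. plod3 had 88.26 to 134.4 CPM in the LOF-labelled libraries and 134.8 to 184.6 CPM in the controls. edgeR called none of these 3 genes (adjusted p 0.465 to 0.588). They were picked for a profile like that of igfbp3 in the same libraries, so their ranges and tests are not separate observations. For igf2a (standard deviation 0.347) they were dhrs11b (0.071), c1qtnf6a (0.074) and tnfrsf19 (0.084), and for igf1 (standard deviation 0.238) the gene listed as si_dkey-23a23.3 (0.072), nt5e (0.077) and twist3 (0.078).

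Other genes of the pathway were examined from lists of 52 names, of which 50 were in the table and 44 passed the filter on low counts. edgeR called 0 of the 44, and 2 (pappaa and pik3r2) had an unadjusted p under 0.05, where 0.0900% of all genes were called and 6.29% had such a p; DESeq2 and both forms of limma-voom called 0. Their median log2 fold change was 0.11, with 33 above 0 and 11 below, where 50.3% of all genes were above 0. The remaining ligand genes of the family were all but absent, with at most 1 count of igf3, 0 of ins and 2 of insb in any library.

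The receptors were unequal in level. The insulin receptor genes insra and insrb had 62.2 ± 5.03 and 40.1 ± 2.33 TPM in the LOF-labelled libraries and 53.7 ± 10.2 and 36.7 ± 4.11 TPM in the controls. The genes of the Igf1 receptor, igf1ra and igf1rb, had 2.66 ± 0.663 and 3.09 ± 0.758 TPM in the LOF-labelled libraries and 2.63 ± 0.550 and 2.68 ± 0.827 TPM in the controls. igf2r, which in mammals clears Igf2, had 8.58 ± 2.70 TPM in the LOF-labelled libraries and 7.59 ± 1.06 TPM in the controls. None of the 5 was called, with log2 fold changes between -0.022 for igf1ra and 0.19 for insra. The 4 LOF-labelled libraries had 155 to 169 CPM of insra, above all 4 controls at 118 to 153 CPM (log2 fold change 0.19, SE 0.10, edgeR adjusted p = 0.821), as were 2.03% of all genes tested.

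Of 3 other binding proteins tested, igfbp6a and igfbp6b had log2 fold changes of 0.60 (SE 0.37) and 0.56 (SE 0.40) at 1.61 to 2.59 mean CPM. Among 8 genes of binding protein proteases and of stanniocalcins, which inhibit such proteases in mammals, the protease gene pappaa had 85.5 ± 12.7 CPM in the LOF-labelled libraries and 68.8 ± 5.06 CPM in the controls (log2 fold change 0.31, SE 0.12, edgeR adjusted p = 0.685). stc1 had 5.25 ± 1.01 CPM in the LOF-labelled libraries and 3.21 ± 1.31 CPM in the controls (log2 fold change 0.65, SE 0.31, edgeR adjusted p = 0.803). The median of these 8 genes was 0.26.

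Inside the cell, the 7 adaptor and inhibitor genes tested had a median log2 fold change of 0.10 and all lay above 0, between 0.033 and 0.20, with irs2a at 0.20 and irs2b at 0.15. The 11 genes of PI3 kinase and Akt had a median of 0.13, with the regulatory subunits pik3r2 at 0.38 (SE 0.13, edgeR adjusted p = 0.581) and pik3r3b at -0.28 (SE 0.14, adjusted p = 0.812). The 6 FoxO genes, which encode transcription factors, several of them kept out of the nucleus by Akt, had a median of 0.019, with foxo6b at -0.56 and foxo4 at 0.13. The 4 genes of Igf2 mRNA binding proteins had a median of -0.055, with igf2bp2a at 0.12 and igf2bp3 at -0.043.

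**Figure D5:**
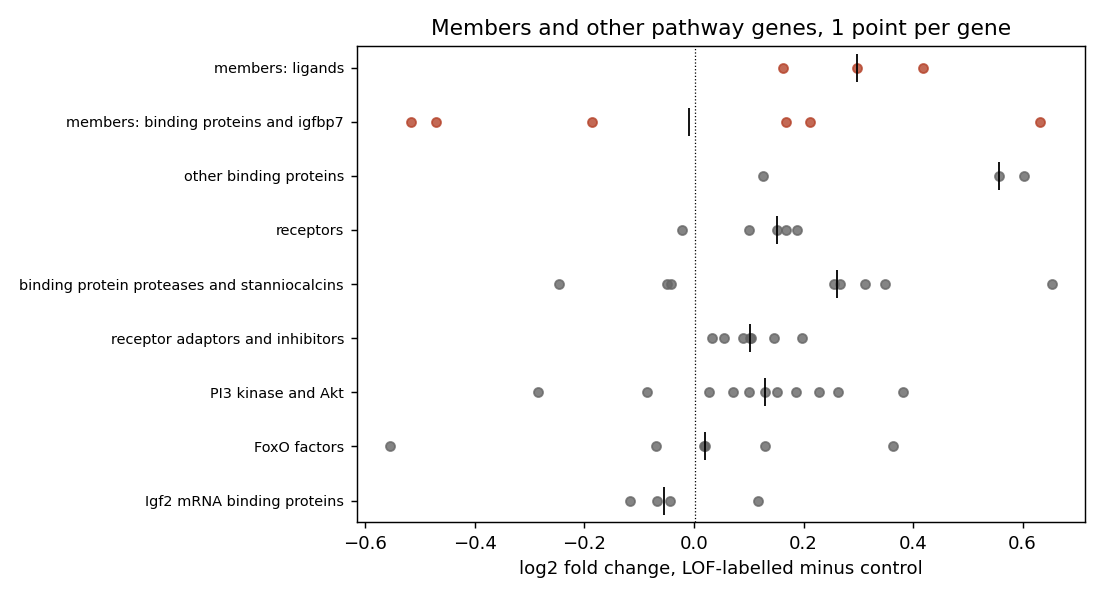
Log2 fold change (LOF-labelled minus control) of each tested member (red) and each tested gene of the other pathway lists (grey), 1 point per gene, with a vertical tick at each list's median and a dotted line at the median of all genes tested, 0.0017. No point belongs to a called gene, and the 3 ligands lie between 0.16 and 0.42.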

How the data were processed

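Read counts per gene were deposited by the authors as 1 table with the gene length; GRCz11 is the build in the submitters' processing notes. For the aligner, the counting tool and the strand setting, the sources used here give nothing. Reads shared between paralogs cannot be traced, so values of duplicated genes may be uncertain. Columns were matched to samples by description, with 0 left unassigned.

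Genes were filtered with filterByExpr (15559 kept), scaled by TMM and compared with the edgeR 4.0.16 quasi-likelihood test (R 4.3.3, robust, no block, Benjamini-Hochberg adjustment over all genes, call under 0.05). SEs follow from the F statistic and intervals from its degrees of freedom. 1 count equalled 0.0861 to 0.210 CPM. CPM uses scaled library sizes, except marker lists, which use library totals; log2 CPM has a prior count of 2. TPM uses the deposited gene length. Alternatives were limma 3.58.1, DESeq2 1.42.0, other scalings, filters and blocks, sums and omissions of libraries. The edgeR procedure was tested on simulated data. Named genes were the members, hpse2, the 2 pathway genes of smallest p per list, all receptors, the closest 3 profiles (mean log2 CPM of at least 1) of 3 members, and abundant or defining markers. Receptors beyond that rule, pathway ligands, fabp10a, matn1, kdrl, cdh5, tie1, pecam1 and markers at 0 were named after their values were seen. Members and lists were chosen with earlier results of these data known, and 1 item of the pathway lists is not reported here.

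Libraries with the same number did not deviate together (correlations -0.34 to -0.23), so numbers were not taken as pairs.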

Additional observations from a re-analysis of the deposited data

How the results depend on the processing

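The number of family members called was 0 in all alternatives run, including each omission of a library, except limma-voom with sample weights (1, igfbp3) and the crossed block (2). The number of pathway genes called was 0 throughout. The number of all genes called was 14, and it was 32 without a low-count filter, 96 with DESeq2, 70 with sample weights, 0 with the library number as a replicate block (524 at an unadjusted p under 0.05), 17 with the biological replicate number as a replicate block, 0 with counts summed per biological replicate (299 at an unadjusted p under 0.05) and 5 with biological replicate as a random effect. The deviations of biological replicates with the same number correlated at -0.49, and the crossed pairing of these numbers, added with earlier results of these data known, gave 396 calls as a block (175 higher, 221 lower).

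Omitting 1 library gave 0 to 20 calls over all genes, namely 0 without LOF-labelled 2_1, LOF-labelled 2_2 or control 1_1 (892, 970 and 854 at an unadjusted p under 0.05), 3 without LOF-labelled 1_1, and 5, 8 and 6 without control 1_2, 2_1 and 2_2. The number of members without overlap was 1 to 2 under such omissions. igfbp3 was in each, which its separation over all 8 libraries fixes in advance. Added to it were igfbp1b without LOF-labelled 1_2, igf1 without LOF-labelled 2_1 and igf2b without control 1_1. Groups separate more readily when a library is left out, and the share of all genes that did so under omissions was not computed. igfbp3 stayed between -0.73 and -0.40 on the log2 scale in 21 alternatives, igf2a between 0.22 and 0.53, igf1 between 0.15 and 0.40 and igf2b between 0.11 and 0.21. Directions turned for igfbp1a (0.13), igfbp7 (-0.12) and igf1ra (0.068) with sample weights, and under omissions, where igfbp1a ranged from -0.33 to 0.046, igfbp7 from -0.017 to 0.38, igf1ra from -0.12 to 0.16 and igf2r from -0.054 to 0.33. The cause was not tested. Low counts limited igfbp1b, igfbp2a and igfbp5a, and the other prior count named the same 9 profiles.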
